A study of Homo sapiens with 12 samples.

Results

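The ETS genes described here are 10 transcription factor genes of the ETS family, namely ERG, ETV1, ETV4, ETV5, ETS1, ETS2, ELF3, ELF5, EHF and SPDEF. They were taken by gene symbol from a table of 58302 genes, and all 10 were found. The table held RNA-sequencing values of 3 established human prostate cell lines with 4 libraries each. BPH-1 is a line from benign prostatic hyperplasia, and PC3 and DU145 are androgen-independent PCa lines from metastases. The labels gave every library the genotype WT and no treatment, and the cells of all lines were grown in DMEM with fetal bovine serum. The libraries were deposited to find genes that differ in expression between the benign line and the PCa lines. Nothing in the labels said that the 4 libraries of a line came from separate cultures, so p-values measured the spread between these libraries, which may be technical. Each line is a single culture lineage, so a difference between lines is a difference between those lineages.

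ETS factors share a DNA-binding domain that recognises sites with the core GGAA. In prostate tissue the family is best known from gene fusions, in which an androgen-driven 5' partner such as TMPRSS2 or SLC45A3 is joined to ERG, ETV1, ETV4 or ETV5. ETV1, ETV4 and ETV5 form the PEA3 group, whose proteins are marked for degradation by the ubiquitin ligase COP1 and whose genes are repressed by CIC, a factor that ERK signalling inactivates. ETS1 and ETS2 are targets of ERK phosphorylation, while ELF3, ELF5, EHF and SPDEF are the epithelium-specific members.

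SPDEF and EHF gave the largest differences between lines among these genes on the log2(FPKM + 1) scale, so the sequence just upstream of their start sites is shown. The RefSeq promoter table of assembly GRCh38.p14 matched 7 of the 10 members. Each stretch is the 250 bases before a RefSeq start site, written 5' to 3' on the strand of the gene, and capitals mark GGAA or its reverse complement TTCC. The SPDEF stretch is chr6:34556330-34556579 on the minus strand, and the EHF stretch is chr11:34624007-34624256 on the plus strand. A further EHF stretch, chr11:34632316-34632565, is not printed and held 0 matches to GGAA or TTCC and 2 CpG dinucleotides. Both EHF stretches lie inside the gene as GENCODE 29 places it (chr11:34621093-34661057), not before its first base.
SPDEF: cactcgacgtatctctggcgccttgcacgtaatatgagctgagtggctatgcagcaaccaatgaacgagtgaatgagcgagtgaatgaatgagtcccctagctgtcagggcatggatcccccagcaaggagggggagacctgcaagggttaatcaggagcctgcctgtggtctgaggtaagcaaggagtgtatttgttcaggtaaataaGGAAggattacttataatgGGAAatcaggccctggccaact
EHF: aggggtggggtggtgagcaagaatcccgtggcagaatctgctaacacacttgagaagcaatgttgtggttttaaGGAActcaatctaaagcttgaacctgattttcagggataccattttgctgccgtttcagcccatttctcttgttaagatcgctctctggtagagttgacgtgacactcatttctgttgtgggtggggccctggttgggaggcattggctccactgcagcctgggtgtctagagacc
The SPDEF stretch held 2 of these 4-base words over both strands, and 76.5% of all 34943 stretches of this length held at least as many. The EHF stretch held 1, and 92.7% of all stretches held at least 1. These matches are common and describe the sequence only. The SPDEF stretch held 6 CpG dinucleotides and the EHF stretch held 4, beside a median of 11 over all stretches.

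Values are given as FPKM, fragments scaled to exon length and library size, with the 4 libraries of a line in the order of their replicate numbers. A library held between 12950662 and 16309564 reads as recovered from the steps of the deposited values. Differences are given as log2 fold changes of FPKM + 1 with the standard error, which understates the change of genes below about 1 FPKM, and a gene was called where limma's adjusted p over all tested genes was under 0.05. PC3 held CTNNA1 at 0.0367 to 0.0719 FPKM and STAT3 at 0.0315 to 0.0588 FPKM, beside at least 12.3 and 13.2 FPKM in the other lines. PC3 is known to lack both genes. KLK3, the prostate-specific antigen gene, was listed at 0 in every library. The basal markers KRT5, KRT14 and TP63 summed to 298 to 427 FPKM in BPH-1 and to at most 0.994 FPKM in the other lines. In DU145, the epithelial markers EPCAM (0.166 to 0.573 FPKM) and CDH1 (0.0851 to 0.297 FPKM) were near 0, while KRT8 (14.7 to 32.5 FPKM) and KRT18 (52.8 to 99.2 FPKM) were not. The genes chosen to check line identity were ones lost in PC3, so the identity of the DU145 libraries was not tested.

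The DU145 libraries did not form an even group. Replicates 1 and 3 stood apart from replicates 2 and 4 along gene GC content, since genes of the lowest GC quartile lay at a median of -0.17, 0.30, -0.32 and 0.20 log2 units from the line's mean in replicates 1 to 4. PC3 replicate 4 lay at -0.24 in the same quartile. Separately, DU145 replicates 1 and 2 held the leukocyte gene PTPRC at 1.35 and 1.25 FPKM and the basal keratin gene KRT5 at 0.342 and 0.499 FPKM, while replicates 3 and 4 held both at or below 0.0240 FPKM. The differences of members whose values followed either split are given with and without these libraries.

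**Figure D1:**
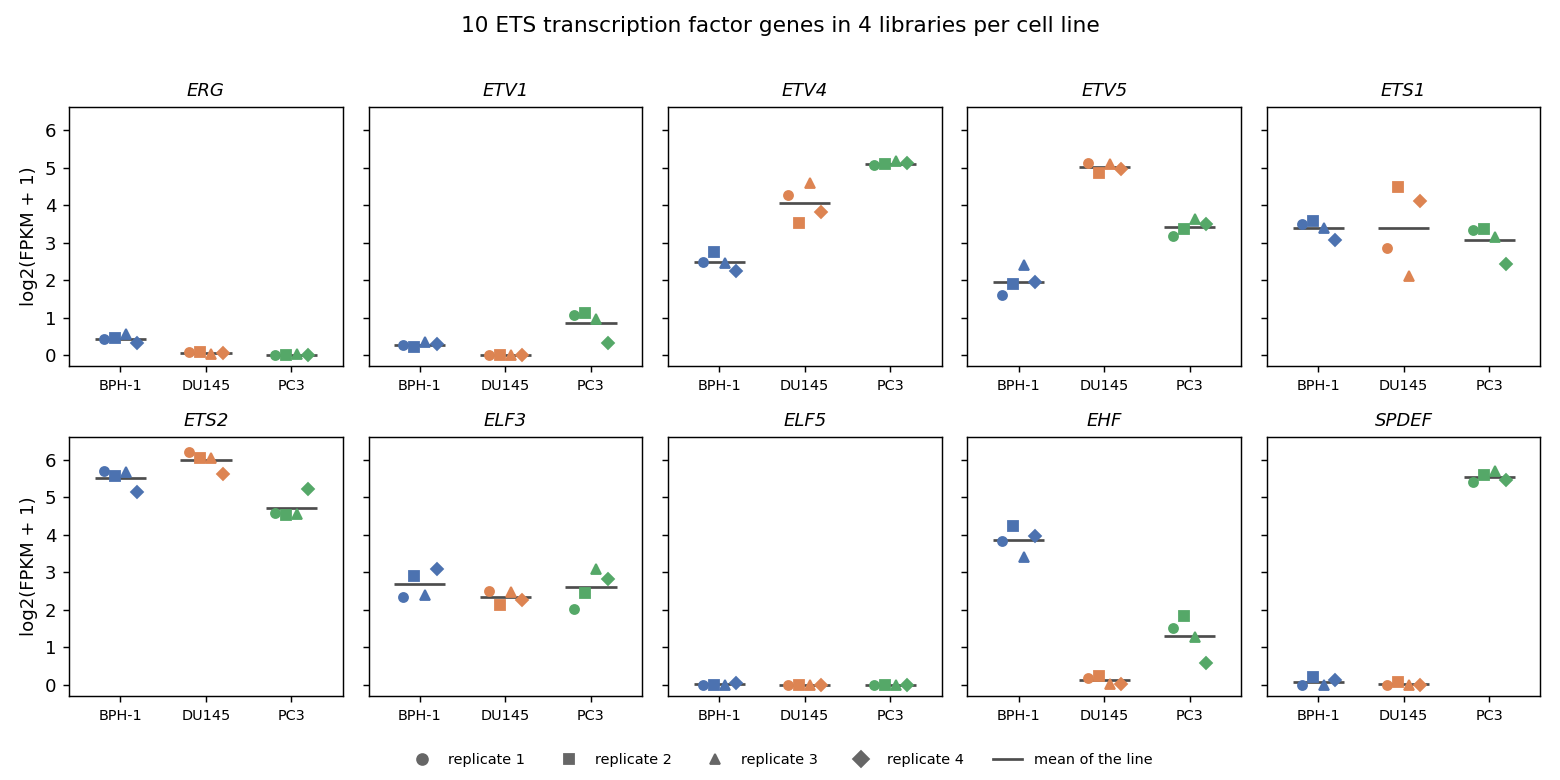
Level of the 10 ETS genes as log2(FPKM + 1) in each of the 12 libraries, 1 panel per gene, with a marker per replicate and a line at the mean of these log2 values in each cell line. SPDEF lay between 41.2 and 51.2 FPKM in PC3 and at or below 0.142 FPKM in BPH-1 and DU145, and EHF lay between 9.63 and 17.96 FPKM in BPH-1 and at or below 2.56 FPKM elsewhere.

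The ETS genes that PCa fusions join were not alike in these lines. ERG encodes the most frequent partner of TMPRSS2 fusions. In BPH-1, ERG was at 0.351, 0.360, 0.464 and 0.247 FPKM, from 52 to 97 reads a library. In DU145 it was at 0.0550, 0.0592, 0.0144 and 0.0332 FPKM, from at most 13 reads, and in PC3 it was listed at 0 in 3 libraries and at 0.0107 FPKM, 2 reads, in replicate 3. The BPH-1 libraries were all above the others, so ERG was low everywhere and lowest in the PCa lines. Its mean of 0.356 ± 0.0884 FPKM (SD, n = 4) in BPH-1 was 8.79-fold that of DU145 (log2 fold change -0.38, SE 0.05, adjusted p = 0.000205). Over PC3 the ratio was 128, with a 95% counting interval of 35.1 to 1062 (log2 fold change -0.43, SE 0.05, adjusted p = 4.93e-05). Between PC3 and DU145, ERG did not pass the read filter, and the exact two-sided permutation test gave p = 0.0286, the smallest that 4 against 4 libraries can give. Without DU145 replicates 1 and 2, the difference of DU145 from BPH-1 was -0.40 (adjusted p = 0.00298). ERG is known in endothelial cells, whose markers PECAM1, CDH5, VWF and KDR summed to 0.249 to 0.634 FPKM in BPH-1, 0.120 to 0.386 FPKM in DU145 and 1.52 to 3.57 FPKM in PC3. PECAM1 (1.68 FPKM by mean) and KDR (0.712 FPKM) made up most of the PC3 sum, while CDH5 had means of 0.134, 0.0403 and 0.00175 FPKM and VWF of 0.0844, 0.0754 and 0.00585 FPKM in BPH-1, DU145 and PC3. The part of such cells in the ERG level was not tested. In bulk libraries, fewer cells that express a gene and less RNA in each cell cannot be told apart.

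ETV1 separated the PCa lines from each other. In PC3 it was at 1.11, 1.18, 0.932 and 0.248 FPKM, in BPH-1 at 0.209, 0.157, 0.269 and 0.227 FPKM, and in DU145 at 0 in 3 libraries and at 0.00232 FPKM, a single read, in replicate 3. PC3 replicates 1 to 3 were thus well above BPH-1, PC3 replicate 4 lay within the BPH-1 range, and every DU145 library lay below both. The PC3 mean of 0.868 ± 0.426 FPKM (SD, n = 4) was 4.03-fold the BPH-1 mean (log2 fold change 0.59, SE 0.16, adjusted p = 0.00832). PC3 exceeded DU145 by 0.87 on the log2 scale (SE 0.16, adjusted p = 0.00170), a ratio of 1500 with a counting interval of 269 to 59272. DU145 fell by 0.28 against BPH-1 (SE 0.04, adjusted p = 0.000200), and this call was lost, at adjusted p = 0.0863, when 1 model was fitted to all 3 lines. ETV1 exons hold 38.1% GC. With the GC trend of each library divided out, PC3 replicates 1 to 4 were at 2.24, 2.47, 2.30 and 0.727 FPKM, so replicate 4 stayed the lowest but lay above the BPH-1 libraries (0.182 to 0.293 FPKM), and the log2 fold change of PC3 against BPH-1 was 1.19 (adjusted p = 0.000736).

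ETV4 rose in both PCa lines and was highest in PC3. The BPH-1 libraries held ETV4 at 4.61, 5.73, 4.50 and 3.76 FPKM, the DU145 libraries at 18.5, 10.5, 23.0 and 13.0 FPKM, and the PC3 libraries at 32.4, 33.2, 34.9 and 33.7 FPKM. The 3 lines did not overlap, and the spread was widest in DU145. ETV4 was 7.21-fold higher in PC3 than in BPH-1 by means (log2 fold change 2.62, SE 0.12, adjusted p = 1.53e-07) and 3.49-fold higher in DU145 (1.56, SE 0.24, adjusted p = 0.000305). PC3 exceeded DU145 2.06-fold (1.06, SE 0.22, adjusted p = 0.00335). Within DU145, replicates 1 and 3 were the higher ones, and ETV4 exons hold 60.8% GC. After the GC trend was divided out the DU145 libraries were at 13.3, 10.2, 15.6 and 12.1 FPKM, still below every PC3 library (23.6 to 26.5 FPKM). Without replicates 1 and 3 the difference of DU145 from BPH-1 was 1.18. ETV4 (chr17:43527844-43579620, minus strand) overlaps DHX8 on the plus strand, whose means were 12.3, 10.6 and 8.45 FPKM in BPH-1, DU145 and PC3. The counting was not stated to use strand, so reads of the shared stretch cannot be told apart.

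ETV5 also rose in both PCa lines, in the other order. Its values were 2.02, 2.71, 4.30 and 2.85 FPKM in BPH-1, 33.7, 28.2, 33.5 and 30.0 FPKM in DU145, and 8.12, 9.24, 11.3 and 10.3 FPKM in PC3. The lines again did not overlap, with DU145 on top and PC3 between. ETV5 was 10.6-fold higher in DU145 than in BPH-1 (log2 fold change 3.05, SE 0.19, adjusted p = 1.09e-06) and 3.28-fold higher in PC3 (1.46, SE 0.18, adjusted p = 7.47e-05). PC3 was 3.22-fold below DU145 (-1.59, SE 0.14, adjusted p = 1.92e-05). ETV5 lies at chr3:186046308-186110318 on the minus strand and overlaps DGKG of the same strand, whose means were 0.328, 1.05 and 0.0268 FPKM in BPH-1, DU145 and PC3. The order of ETV4 (BPH-1, DU145, PC3) and of ETV5 (BPH-1, PC3, DU145) therefore differed between the PCa lines, each step beyond the spread of the libraries.

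Of 7 genes that act on the stability or transcription of ETS factors (COP1, DET1, CIC, ATXN1, ATXN1L, SPOP and USP9X), 0 were higher and 4 were lower in PC3 than in BPH-1, where 67.6% of all tested genes were called, 27.2% as higher and 40.5% as lower. At an unadjusted p under 0.05 limma also gave 0 higher and 5 lower, and voom on the recovered reads gave 0 higher and 4 lower at its adjusted p. Over all alternatives, 3 to 6 were called. The ATXN1L call (-0.37, adjusted p = 0.0378) was lost with no filter, with a replicate block and under median-of-ratios scaling (-0.24, adjusted p = 0.135). Under upper-quartile scaling ATXN1L was 0.0042 (adjusted p = 0.985), and its call was also lost on leaving out several single libraries. COP1 had values of 3.92, 4.47, 5.05 and 4.86 FPKM in BPH-1, 5.41, 6.30, 4.46 and 6.28 FPKM in DU145, and 0.240, 0.216, 0.278 and 0.217 FPKM in PC3. All PC3 libraries were far below the others, while BPH-1 and DU145 overlapped. In PC3 COP1 was 19.2-fold below BPH-1 (log2 fold change -2.17, SE 0.10, adjusted p = 1.75e-07) and 23.6-fold below DU145 (-2.41, SE 0.14, adjusted p = 2.02e-06). CIC fell by 1.16 against DU145 (adjusted p = 0.000585), and USP9X, a deubiquitinase, fell by 2.69 against BPH-1 (adjusted p = 0.000115). In DU145, SPOP (0.71), a substrate adaptor of a ubiquitin ligase, and DET1 (0.65), a partner of COP1, were higher than in BPH-1, and USP9X (-3.05, and -2.05 without DU145 replicates 1 and 3) was lower, so 3 of 7 were called beside 62.6% of all genes. PC3 against DU145 gave 0 higher and 5 lower of 7, beside 48.2% of all genes called and 28.3% lower, with the same counts at an unadjusted p and under voom. Over all alternatives, 4 to 6 were called there. The SPOP call was lost with a replicate block (-0.46, adjusted p = 0.0802), under median-of-ratios and upper-quartile scaling, and on leaving out several single libraries. The medians of the list were -0.37, 0.24 and -0.66 for PC3 over BPH-1, DU145 over BPH-1 and PC3 over DU145, beside medians of -0.13, -0.03 and -0.05 over all tested genes.

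Of 12 genes that ERK signalling is known to induce, many of them its feedback inhibitors, 10 were higher and 1 was lower in PC3 than in BPH-1, where 27.2% of all genes were higher and 40.5% lower. The median of the list was 1.78. DUSP4, an ERK phosphatase, was at 108, 133, 145 and 87.1 FPKM in PC3, between 4.38 and 5.46 FPKM in BPH-1 and between 3.86 and 5.72 FPKM in DU145. PC3 alone was high, with log2 fold changes of 4.35 (SE 0.16, adjusted p = 5.22e-08) over BPH-1 and 4.30 (SE 0.19, adjusted p = 4.17e-07) over DU145. SPRY2, a feedback inhibitor of receptor signalling, rose in PC3 (3.11) and in DU145 (2.37) over BPH-1, and PC3 exceeded DU145 by 0.74. In DU145, 7 were higher and 3 lower than in BPH-1 (30.3% and 32.3% of all genes) with a median of 0.68, and PHLDA1 rose by 2.46. The lower ones were EGR1, SPRED1 and DUSP6. DUSP6 had means of 5.16 FPKM in DU145 and 10.1 FPKM in BPH-1 (log2 fold change -0.82, adjusted p = 0.0061). This DUSP6 call was lost under upper-quartile scaling (-0.56, adjusted p = 0.0541). In PC3, DUSP6 rose by 0.97 over BPH-1. EGR1, an immediate-early factor, ran the other way in both PCa lines, at 18 to 26.9 FPKM in BPH-1, 2.16 to 11.1 FPKM in DU145 and 0.0919 to 1.06 FPKM in PC3. It fell by 4.17 in PC3 (adjusted p = 3.71e-07) and by 2.08 in DU145 (adjusted p = 0.00113). PC3 against DU145 gave 8 higher and 1 lower (20.0% and 28.3% of all genes) with a median of 0.76, among them FOSL1 (1.84), an AP-1 subunit. SPRED1, another feedback inhibitor, was -0.89 in DU145 against BPH-1 (adjusted p = 0.0337), with DU145 replicates 1 and 3 at 1.57 and 1.37 FPKM and replicates 2 and 4 at 5.12 and 4.64 FPKM. This call was lost without replicates 1 and 3 (-0.26, adjusted p = 0.148) and with the GC trend divided out (-0.13, adjusted p = 0.651). The rise of IER3 in DU145 (0.66, adjusted p = 0.0222) was not stable either. Its call was lost with equal summed FPKM (0.41, adjusted p = 0.129) and with the GC trend divided out (0.22, adjusted p = 0.299). It was also lost when BPH-1 replicate 2 or 4, or DU145 replicate 1 or 3, was left out. The other genes called higher in DU145 kept their calls in all alternatives.

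**Figure D2:**
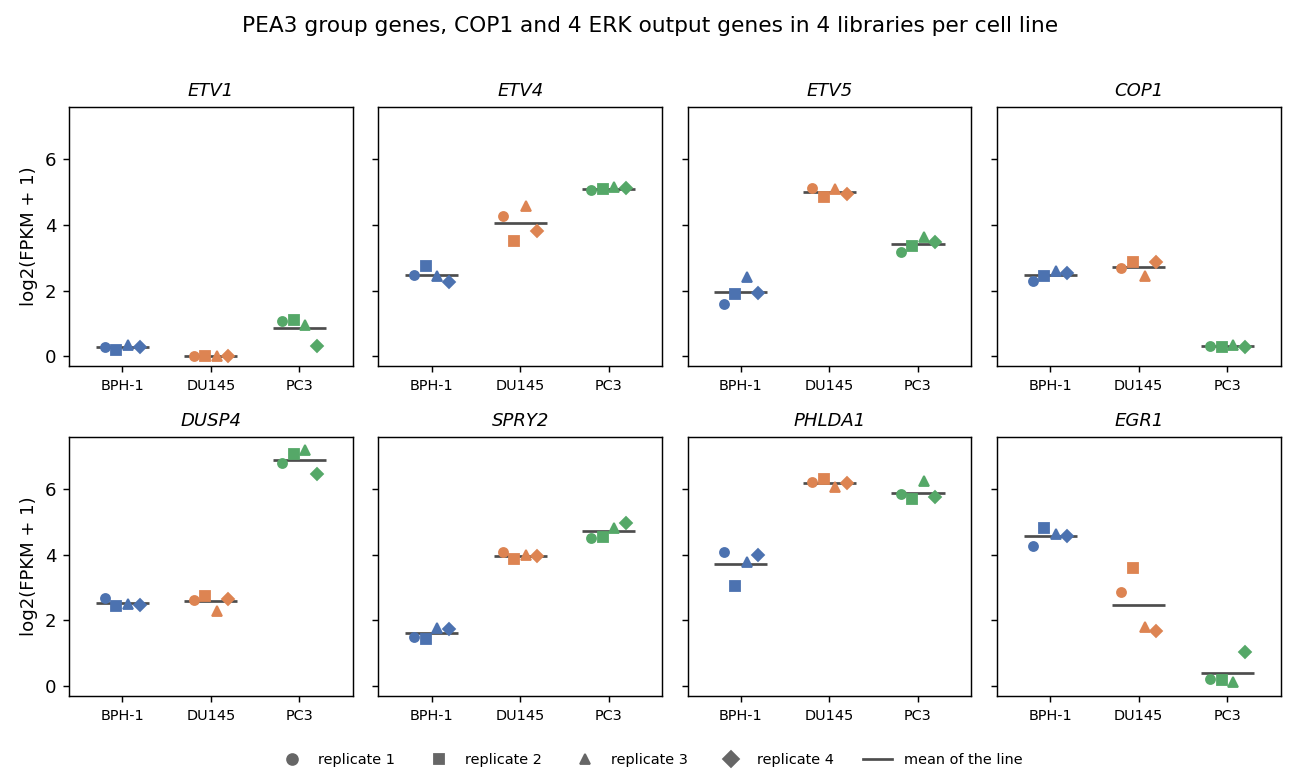
Level as log2(FPKM + 1) of the PEA3 group genes ETV1, ETV4 and ETV5, of COP1, and of the ERK-induced genes DUSP4, SPRY2, PHLDA1 and EGR1, with a marker per replicate and a line at the mean of each cell line. ETV4 and DUSP4 were highest in PC3, ETV5 was highest in DU145, and COP1 lay between 0.216 and 0.278 FPKM in PC3 and at or above 3.92 FPKM in the other lines.

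ETS1 gave no call in any comparison, and its spread in DU145 was the widest among the members at these levels. It was at 10.2, 11.0, 9.58 and 7.33 FPKM in BPH-1, at 6.19, 21.2, 3.34 and 16.2 FPKM in DU145, and at 9.09, 9.34, 7.93 and 4.37 FPKM in PC3. DU145 replicates 2 and 4 were above every other library and replicates 1 and 3 below every BPH-1 library, so the lines overlapped. The log2 fold change of DU145 against BPH-1 was 0.00 (SE 0.46, adjusted p = 0.997). With replicates 1 and 3 left out it was 0.91 (adjusted p = 0.00447) over BPH-1, and PC3 was then lower than DU145 (-1.22, adjusted p = 0.0125). With replicates 1 and 2 left out it was -0.27. ETS1 exons hold 42.6% GC, and with the GC trend divided out the DU145 libraries were at 10.1, 22.8, 6.19 and 17.9 FPKM, so the split narrowed and did not close. PC3 against BPH-1 was -0.31 (SE 0.22, adjusted p = 0.230, 95% interval -0.80 to 0.18), and it was 0.15 with the GC trend divided out.

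ETS2 had the highest FPKM of the family in BPH-1 and DU145. Its values were 51.0, 46.6, 50.1 and 34.2 FPKM in BPH-1, 73.4, 65.6, 64.7 and 48.0 FPKM in DU145, and 23.0, 21.9, 22.3 and 36.1 FPKM in PC3. In each line replicate 4 stood off from the rest, lower in BPH-1 and DU145 and higher in PC3, and PC3 replicate 4 lay within the BPH-1 range. PC3 was 2.44-fold below DU145 (log2 fold change -1.27, SE 0.20, adjusted p = 0.000687) with no overlap, and 1.76-fold below BPH-1 (-0.81, SE 0.19, adjusted p = 0.00375). The call against BPH-1 was lost under upper-quartile scaling (-0.42, adjusted p = 0.132). DU145 against BPH-1 was 0.46 (SE 0.19, adjusted p = 0.0538) and did not pass, and without DU145 replicate 4 it was 0.58 (adjusted p = 0.0201).

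On the log2(FPKM + 1) scale the largest differences were those of SPDEF and EHF, both epithelium-specific members. SPDEF, a factor of secretory and goblet cells that is also known in luminal prostate cells, was at 41.2, 47.5, 51.2 and 42.6 FPKM in PC3, from 1228 to 1635 reads a library. In BPH-1 it was listed at 0, 0.142, 0 and 0.0836 FPKM, 8 reads in all, and in DU145 at 0 in 3 libraries and at 0.0533 FPKM, 2 reads, in replicate 2. SPDEF was thus at or near 0 outside PC3. The PC3 mean of 45.7 ± 4.60 FPKM (SD, n = 4) was 814 times that of BPH-1 (counting interval 413 to 1886), with a log2 fold change of 5.46 (SE 0.11, adjusted p = 2.55e-09). It was 3231 times that of DU145 (counting interval 894 to 26684), with a log2 fold change of 5.52 (SE 0.13, adjusted p = 2.80e-08). BPH-1 and DU145 could not be compared by limma, and the exact two-sided permutation test gave p = 0.429. SPDEF ranked 507 by FPKM among 19817 protein-coding genes in PC3 and 14139 in BPH-1. SPDEF lies at chr6:34537802-34556333 on the minus strand, with 64.6% GC in its exons.

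EHF, a factor of differentiated epithelia, was at 13.3, 17.96, 9.63 and 14.6 FPKM in BPH-1. It was at 0.141, 0.175, 0.00739 and 0.0170 FPKM in DU145, from 20, 25, 1 and 2 reads, and at 1.85, 2.56, 1.40 and 0.484 FPKM in PC3. The lines did not overlap, with BPH-1 highest and DU145 lowest. EHF was 163-fold lower in DU145 than in BPH-1 (log2 fold change -3.75, SE 0.19, adjusted p = 4.31e-07) and 8.81-fold lower in PC3 (-2.57, SE 0.27, adjusted p = 2.98e-05). PC3 exceeded DU145 by 1.18 (SE 0.23, adjusted p = 0.00254). DU145 replicates 1 and 2, which held more EHF, were also those with KRT5 and PTPRC reads, and the part of these in the EHF level was not tested. With both left out the differences were -3.85 against BPH-1 (adjusted p = 4.61e-05) and 1.28 between PC3 and DU145.

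ELF3, a factor of many glandular epithelia, gave no call in any comparison. Its values were 4.10, 6.44, 4.27 and 7.53 FPKM in BPH-1, 4.60, 3.36, 4.58 and 3.74 FPKM in DU145, and 3.04, 4.42, 7.51 and 6.10 FPKM in PC3, so all lines overlapped. The log2 fold changes were -0.09 for PC3 against BPH-1 (SE 0.26, adjusted p = 0.766, 95% interval -0.67 to 0.49), -0.35 for DU145 against BPH-1 (SE 0.21, adjusted p = 0.163) and 0.26 for PC3 against DU145 (SE 0.24, adjusted p = 0.404). With the GC trend divided out, DU145 against BPH-1 was -0.69 (adjusted p = 0.00714). ELF3 overlaps ELF3-AS1 on the other strand, with means of 1.17, 3.92 and 0.927 FPKM in BPH-1, DU145 and PC3, and reads of the pair cannot be told apart. ELF5, known from mammary and other secretory epithelium, was listed at 0 in 11 libraries and at 0.0228 FPKM, 3 reads, in BPH-1 replicate 4, so it was at or under the floor of 3 reads throughout and no fold is given.

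Counted together, 9 members could be tested between PC3 and BPH-1, of which 4 were higher in PC3 (SPDEF, ETV4, ETV5 and ETV1) and 3 lower (EHF, ETS2 and ERG). Over all 16345 genes tested, 67.6% were called, 27.2% as higher and 40.5% as lower. With DU145 against BPH-1, 8 members were tested, 2 were higher (ETV5 and ETV4) and 3 lower (EHF, ERG and ETV1), beside 62.6% called of 17070 genes, 30.3% higher and 32.3% lower. With PC3 against DU145, 8 members were tested, 4 were higher (SPDEF, EHF, ETV4 and ETV1) and 2 lower (ETV5 and ETS2), beside 48.2% called of 16210 genes, 20.0% higher and 28.3% lower. The libraries of the 2 lines did not overlap for 5, 5 and 7 of the 10 members, beside 64.5%, 59.4% and 46.5% of the genes tested. With 48.2% to 67.6% of all genes called, a count over so few members is not a result about them, and what the data show is which members moved, how far and in which line. The median log2 fold change of the tested members was -0.09, -0.14 and 0.56. The comparisons share libraries, so their calls are not independent. In PC3 against BPH-1 the balance of all calls depended on the scaling, with 4443 higher and 6614 lower as reported and 6092 higher and 5055 lower under upper-quartile scaling, where the median of all genes moved from -0.13 to 0.09.

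**Figure D3:**
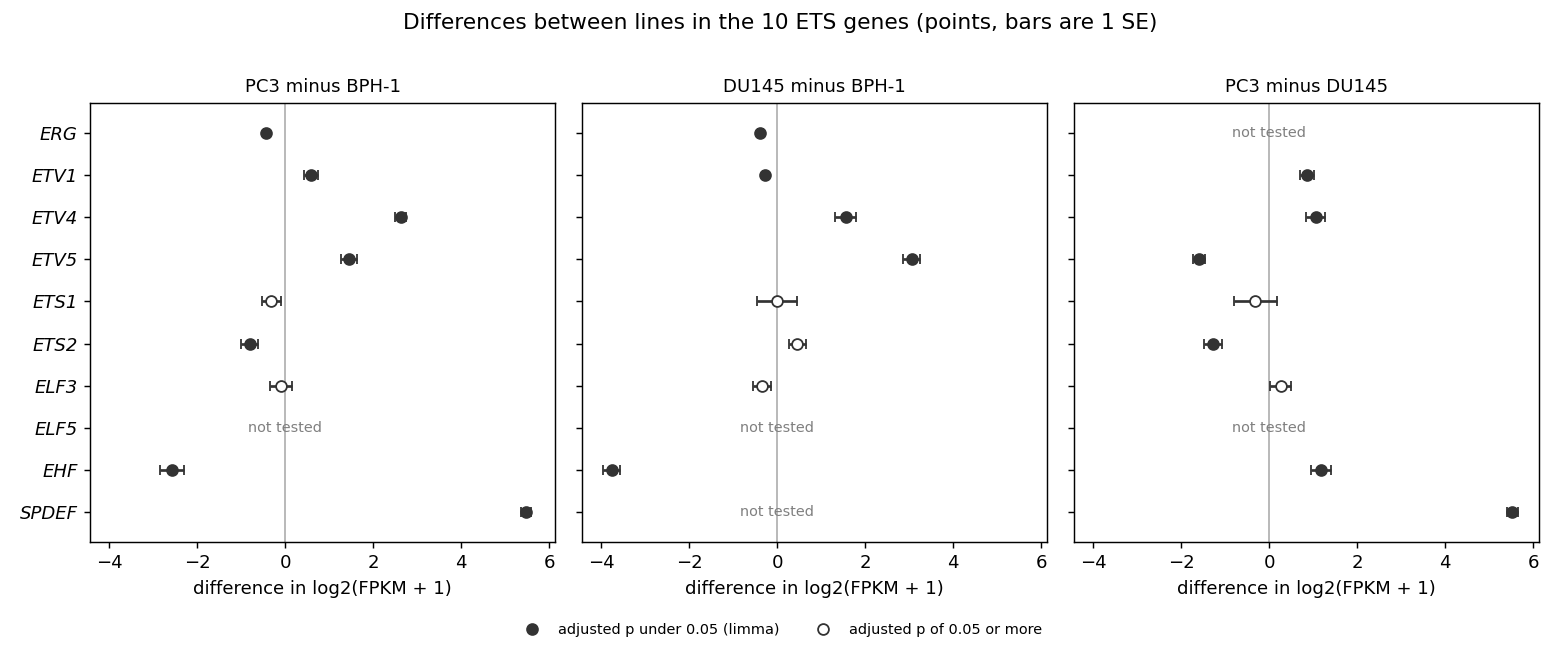
Difference in log2(FPKM + 1) between lines for each tested member, 1 panel per comparison, with bars of 1 standard error and filled points where limma's adjusted p was under 0.05. SPDEF lay at 5.46 and 5.52 in the panels with PC3, EHF at -3.75 in DU145 minus BPH-1, and the points of ETS1 and ELF3 are open in all 3 panels.

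The summed FPKM of the 10 members was 82.7 ± 8.57 in BPH-1, 126 ± 10.9 in DU145 and 130 ± 7.65 in PC3 (SD, n = 4), and the libraries of BPH-1 (70.9 to 91.1) lay below those of DU145 (111 to 137) and PC3 (120 to 138). Summed over all 28 genes of the family it was 183 ± 15.7, 183 ± 10.6 and 181 ± 8.75. In FPKM as deposited the family sum thus differed by less than the spread of the libraries. The FPKM of all genes summed to 243707 to 249733 in BPH-1 libraries, 289756 to 302456 in DU145 and 293492 to 306698 in PC3. Both ETS sums therefore rest on the scaling. Set against the total of its library, either sum in the PCa lines would come down relative to its BPH-1 value. By means, the sum of the 10 members would still be higher in both PCa lines than in BPH-1. The sum of the 28 genes would be lower in both. The make-up of the members' sum differed between lines. ETS2 held 54.8% of the members' sum in BPH-1, 49.5% in DU145 and 19.8% in PC3. In PC3 the largest share was that of SPDEF with 35.1%, followed by ETV4 with 25.8%, against 5.60% for ETV4 in BPH-1. ETV5 held 24.8% in DU145, 7.46% in PC3 and 3.63% in BPH-1, while EHF held 16.8% in BPH-1, 1.23% in PC3 and 0.0648% in DU145. In rank by FPKM among the 28 genes, SPDEF was at 1, ETV4 at 2 and ETS2 at 3 in PC3, ETS2 at 1, ETV5 at 2 and ETV4 at 4 in DU145, and ETS2 at 1, EHF at 4 and ETV4 at 14 in BPH-1. The steps of the values fitted a gene length that adds up every distinct annotated exon, 2300 bases for SPDEF and 27986 for ETV1, so genes with many overlapping exons have an understated FPKM and the shares and ranks between genes rest on this length.

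**Figure D4:**
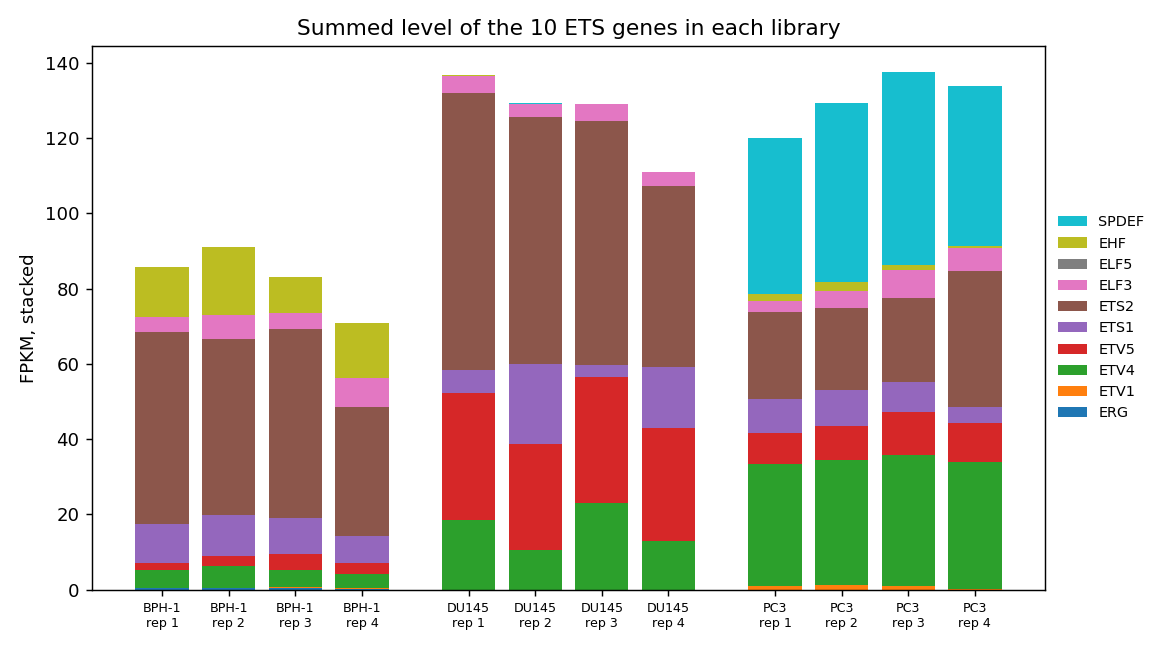
FPKM of the 10 members in each of the 12 libraries as stacked bars from 0, with 1 colour per gene. ETS2 takes the largest share of the BPH-1 bars, which reach 70.9 to 91.1 FPKM, while SPDEF is the largest share of the PC3 bars, which reach 120 to 138 FPKM.

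The 18 other genes of the family were mostly lower in the PCa lines where they could be tested. In PC3 against BPH-1, 11 could be tested, of which 0 were higher and 9 lower, beside the 40.5% of all genes that were lower, and the median was -1.08. In DU145 against BPH-1, 13 could be tested, with 0 higher and 8 lower, beside 32.3% of all genes, and a median of -0.88. Limma at an unadjusted p under 0.05 and voom also gave 0 higher in both. GABPA, a broadly expressed activator of housekeeping and mitochondrial genes, was at 6.37, 10.3, 11.2 and 11.7 FPKM in BPH-1, at 1.17, 3.38, 0.376 and 1.77 FPKM in DU145 and at 2.66, 2.50, 1.03 and 0.908 FPKM in PC3. All BPH-1 libraries were above the rest, and the difference was -2.0 in PC3 (SE 0.26, adjusted p = 0.000119) and -2.12 in DU145 (SE 0.33, adjusted p = 0.000371). ELK3 (-1.85 and -1.63) and ELK4 (-1.71 and -2.02), which pair with serum response factor, ELF1 (-1.66 and -1.09), ETV6 (-1.34 and -0.92), a repressor, ELF2 (-0.73 and -0.72), ELF4 (-0.48 and -0.93) and FLI1 (-0.44 and -0.88), the close relative of ERG, were lower in PC3 and in DU145. Without DU145 replicates 1 and 3 the DU145 difference was -1.61 for GABPA, -1.23 for ELK4, -0.62 for ELF1 and -0.89 for FLI1, all called, while the calls of ETV6 (-0.46, adjusted p = 0.0753) and ELF2 (-0.48, adjusted p = 0.0604) were lost. ETV3 was lower in PC3 (-1.08) and did not pass in DU145 (-0.65, adjusted p = 0.0753).

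With the GC trend divided out, GABPA was -1.24 in PC3 and -1.49 in DU145, ELK4 was -0.99 and -1.51, and the calls of ELF1 (-0.28, adjusted p = 0.252) and ELF2 (-0.42, adjusted p = 0.0712) in DU145 were lost. ELF4 went from -0.48 to -0.91 in PC3 and ETV6 from -1.34 to -1.39. Under upper-quartile scaling ELF4 in PC3 was -0.11 (adjusted p = 0.560). Between PC3 and DU145, 12 were tested, FLI1 was higher in PC3 (0.44, SE 0.08, adjusted p = 0.00107) and ERF, a repressor that ERK signalling exports from the nucleus, was lower (-0.59, SE 0.18, adjusted p = 0.0230). The ERF call was lost without DU145 replicate 1 (-0.51, adjusted p = 0.0682), PC3 replicate 1 (-0.53, 0.0669) or PC3 replicate 2 (-0.56, 0.0637), and the number called rose from 2 to 7 without DU145 replicate 3 and was 1 without replicate 1. FLI1 was at 0.0726 and 0.0493 FPKM in DU145 replicates 1 and 2 and at 0 in replicates 3 and 4, again those with and without PTPRC reads. PTPRC was at 1.15 to 1.54 FPKM in BPH-1 and at 0 in PC3, the T cell gene CD3E was at 0 throughout, and their part in the FLI1 level was not tested. SPIC was listed at 0 in every library, and SPI1 and SPIB, factors of myeloid and B cells, had at most 4 reads in any library.

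**Figure D5:**
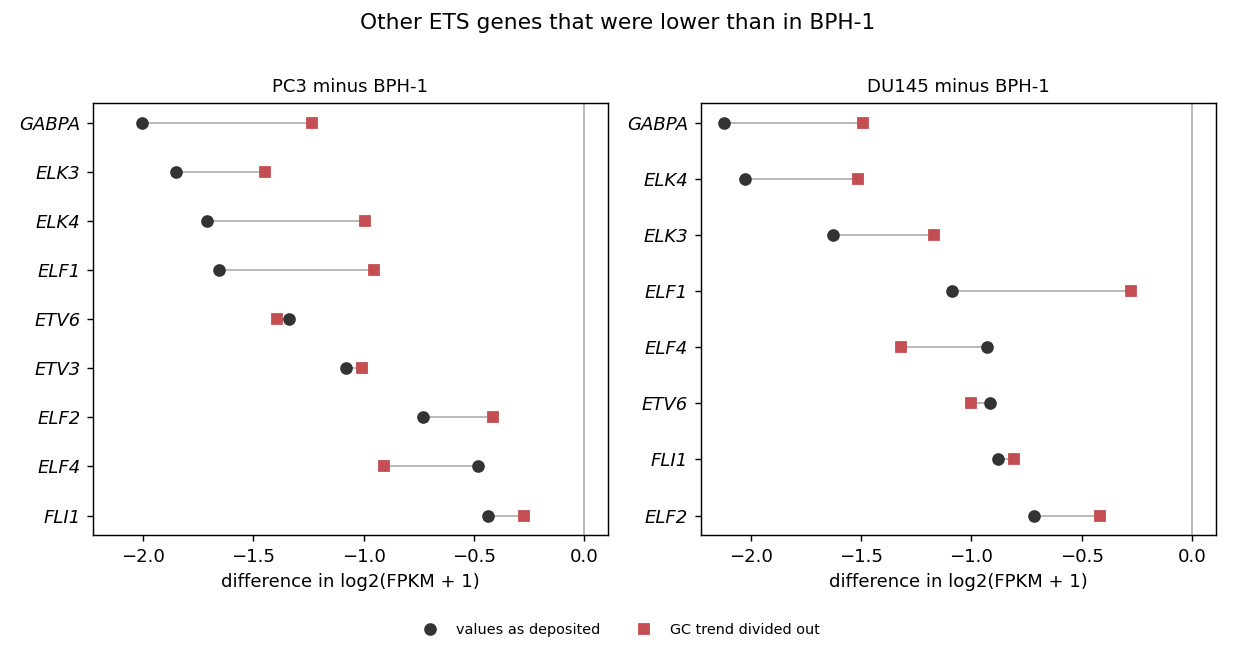
Difference in log2(FPKM + 1) from BPH-1 for the ETS genes outside the 10 members that were called lower, 9 in PC3 on the left and 8 in DU145 on the right, as deposited (circles) and with the GC trend divided out (squares). GABPA moved from -2.12 to -1.49 in DU145 and ELF1 from -1.09 to -0.28.

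The 5' partners that ETS genes are fused to in PCa were measured as transcripts, since FPKM per gene do not show fusions. Of 7 partners, 3 were higher and 2 lower in PC3 than in BPH-1, 2 higher and 3 lower in DU145, and 4 higher and 1 lower between PC3 and DU145, with medians of 0.53, -0.18 and 1.01. Of all genes 67.6%, 62.6% and 48.2% were called, so 5 of 7 lay near that share in the comparisons with BPH-1. TMPRSS2, an androgen-responsive serine protease gene, was at 2.03, 2.16, 3.12 and 2.21 FPKM in PC3, between 0.0710 and 0.215 FPKM in BPH-1 and at 0, 0, 0.0213 and 0 FPKM in DU145. The 3 lines did not overlap, and PC3 exceeded BPH-1 by 1.56 (SE 0.11, adjusted p = 2.30e-06) and DU145 by 1.74 (SE 0.11, adjusted p = 3.56e-06). ETV1, with 0 or 1 read a library in DU145, had the same order of line means. NDRG1 rose in PC3 (1.97, adjusted p = 0.000893), and ACSL3, an acyl-CoA ligase gene, was lower in PC3 (-1.69) and in DU145 (-2.95) than in BPH-1. HNRNPA2B1 was also lower in both (-0.97 and -1.38), but neither call held with the GC trend divided out (-0.097, adjusted p = 0.570, and -0.47, adjusted p = 0.0913). HERPUD1, a gene of the unfolded protein response, rose in DU145 alone (1.58 over BPH-1, adjusted p = 0.000147, and -1.63 for PC3 against DU145). SLC45A3 was at 0.57 in DU145 against BPH-1 (adjusted p = 0.0324), a call lost when any of 7 of the 8 libraries was left out and down to 0.24 (adjusted p = 0.171) with the GC trend divided out.

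Genes reported elsewhere as targets of the epithelium-specific factors did not follow a single line. Of the 10 listed, 9 could be tested between PC3 and BPH-1, with 2 higher and 6 lower (27.2% and 40.5% of all genes), and 9 between DU145 and BPH-1, with 0 higher and 8 lower (30.3% and 32.3%). With a stricter read filter 5 and 3 were called. At an unadjusted p under 0.05 limma gave 1 higher in DU145, and voom gave 0. AGR2, a protein disulfide isomerase gene of secretory cells, was at 13.8, 25.9, 21.7 and 9.27 FPKM in PC3, between 0.184 and 0.574 FPKM in BPH-1 and at 0 in every DU145 library. Like SPDEF, it was high in PC3 alone, with a log2 fold change of 3.77 over BPH-1 (SE 0.28, adjusted p = 3.30e-06) and a level at least 357-fold that of DU145, taking 3 reads a library as the floor. TGFBR2, a receptor gene of TGF-beta, was at 0.67 in PC3 against BPH-1 (adjusted p = 0.0142), a call lost with equal summed FPKM (0.41, adjusted p = 0.0898) and in 1 fit over all 3 lines (adjusted p = 0.104). Its call as lower in DU145 was lost under upper-quartile scaling (-0.72, adjusted p = 0.0666), without DU145 replicates 1 and 3 (-0.32, adjusted p = 0.0560) and without any single BPH-1 library. Also in DU145 against BPH-1, the LCN2 call was lost with no filter (-1.35, adjusted p = 0.0674). The AGR2 call there was lost in 1 fit over all 3 lines (-0.36, adjusted p = 0.220). SPRR1B, a cornified envelope gene, was at 6.90, 40.7, 6.13 and 59.8 FPKM in BPH-1 and at 0 in all other libraries, at least 78.5-fold lower in PC3 and 90.1-fold lower in DU145. SPRR1A was likewise at 0 outside BPH-1, at least 31.3-fold and 35.9-fold lower. SERPINB5, which encodes maspin, was at 42.5 to 52.4 FPKM in BPH-1, 7.30 to 15.5 FPKM in PC3 and 0.0138 to 0.0792 FPKM in DU145, the order that EHF also had, and it fell by 5.50 in DU145 (SE 0.14, adjusted p = 2.29e-08). The medians of the list were -1.99, -2.49 and 1.66 in the 3 comparisons.

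Of 8 genes reported as targets of ERG or the PEA3 group in invasion, 7 could be tested between PC3 and BPH-1, with 4 higher and 3 lower, 8 between DU145 and BPH-1, with 1 higher and 4 lower, and 6 between PC3 and DU145, with 5 higher and 1 lower. Over all genes the shares called were 67.6%, 62.6% and 48.2%, and with a stricter read filter 2 of the list were called in DU145 against BPH-1 and 3 in PC3 against DU145. VIM, the gene of vimentin, rose by 5.75 in PC3 (SE 0.13, adjusted p = 4.65e-09) and by 4.80 in DU145 (SE 0.15, adjusted p = 3.50e-08). PLAT, tissue plasminogen activator, was at 25.1 to 37.8 FPKM in PC3, 1.18 to 2.15 FPKM in BPH-1 and 0.622 to 0.911 FPKM in DU145. PLAT and ADAMTS1 exceeded DU145 in PC3 by 4.22 and 4.56 on the log2 scale. The collagenase gene MMP1 was lower than in BPH-1 in PC3 (-1.42, adjusted p = 0.00130) and in DU145 (-2.80, adjusted p = 5.97e-06), and the gelatinase gene MMP9 was lower in both (-3.17 and -3.14). CXCR4, a chemokine receptor gene, was lower in PC3 than in DU145 (-0.42, adjusted p = 0.00796). ETV4 and ETV5 rose in both PCa lines while MMP1 and MMP9 fell in both. The medians of the list were 0.97, -0.50 and 1.17.

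The gene whose pattern over the 12 libraries was most like that of a member was found among 13973 protein-coding genes outside the family, by the root mean square difference of log2(FPKM + 1) centred on each gene's mean. For SPDEF it was NR2F1 (0.229), with means of 0.210, 0.0385 and 37.9 FPKM in BPH-1, DU145 and PC3. For EHF it was SPOCK1 (0.263), with means of 17.0, 0.206 and 1.94 FPKM. ETV4 was nearest to ZP3 (0.126), ETV5 to HOXB5 (0.244), ETS1 to GDI2 (0.182), ETS2 to TNFAIP1 (0.187) and ELF3 to RPL39 (0.211). The difference was taken over all 12 library values, so it also carries the spread within a line. GDI2 had means of 19.8, 21.5 and 18.1 FPKM in BPH-1, DU145 and PC3, with an SD of 13.9 FPKM in DU145, where ETS1 also spread widely. With 3 lines, many genes share an order of line means.

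Some neighbours of the members on the chromosome had the order of lines of the member and some did not. SPDEF has PACSIN1 2571 bases away on one side, at 0.0455, 0.149 and 0.431 FPKM in BPH-1, DU145 and PC3, and C6orf106 30955 bases away on the other, at 41.6, 48.0 and 45.3 FPKM. PACSIN1 was called higher in PC3 than in BPH-1 (0.45), far less than SPDEF, and C6orf106 was not called. EHF (chr11:34621093-34661057, plus strand) and ELF5 lie 107288 bases apart, and APIP, 192037 bases beyond EHF, was at 4.20, 1.96 and 3.99 FPKM, the order of EHF by means, with DU145 below BPH-1 (-0.77, adjusted p = 0.0156). APIP was not called between PC3 and BPH-1 (-0.05, adjusted p = 0.881), where EHF was -2.57. ERG and ETS2 are neighbours on chromosome 21, 143527 bases apart. In DU145, where ERG was lower than in BPH-1, the mean of ETS2 was 63.0 ± 10.7 FPKM (SD, n = 4) beside 45.5 ± 7.73 FPKM in BPH-1. PSMG1, 349814 bases beyond ETS2, was at 19.3, 37.2 and 15.4 FPKM in BPH-1, DU145 and PC3, the order of ETS2 by means, and PC3 against DU145 was -1.22 (adjusted p = 0.000294) beside -1.27 for ETS2. PSMG1 was not called between PC3 and BPH-1 (-0.31, adjusted p = 0.0818), where ETS2 was -0.81. KCNJ15, 72670 bases on the other side of ERG, was at 1.76, 0.0226 and 0 FPKM in BPH-1, DU145 and PC3, the order that ERG had. ETS1 and FLI1 lie 98977 bases apart, and FLI1 was lower in both PCa lines while ETS1 was not called.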

How the data were processed

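RNA-sequencing of BPH-1, DU145 and PC3 gave 12 libraries, assigned to line and replicate by column name. The authors deposited normalized values of 58302 genes. No header names the unit, and the deposited values have the form of FPKM. The submitters' processing notes list CASAVA 1.8, HISAT2 2.1.0, edgeR and GRCh38, with no role given. Library type and strand were not given in the sources used here. Reads per library were recovered from the steps of low values with the exon lengths of GENCODE 29, and 93.0% to 94.2% of low values came out within 0.05 of a whole read. They gave the read filter, the counting intervals and the voom alternative, and cover counting error only.

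A gene was tested where 4 libraries of the pair reached a value worth 10 reads (at the median depth) and all libraries together held 15 reads. The test was limma (version 3.58.1, R 4.3.3) on log2(FPKM + 1) with its variance prior following the mean level, fitted to the lines compared and no others, with Benjamini-Hochberg adjustment over all tested genes. Members outside the filter had an exact permutation test in SciPy 1.17.1. On simulated data, 100 of 100 genes changed 4-fold and 56 to 57 of 100 changed 2-fold were called in each comparison, and 5 to 15 unchanged genes were called too. The simulation gave all genes and lines the same spread and changed 200 genes, none of them low in reads. In the real data far more genes were called, and some spread more widely, such as ETS1 in DU145 with an SD of 71.5% of its mean. These rates do not describe such genes.

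The 10 genes, the gene lists and the tests were chosen with earlier results of these data known. Named genes were the members, the other ETS genes, the nearest protein-coding neighbours, the most alike gene of each member above 1 FPKM, and, of each list, the 2 largest rises and 2 largest falls among genes called. The text gives a selection of these. Alternatives covered the filter, the pseudocount (0.1), 1 fit over 3 lines, a replicate block, 3 scalings, a GC trend divided out, voom and leaving out each library. Leaving out 2 DU145 libraries at a time was added after seeing the data.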

Additional observations from a re-analysis of the deposited data

Results flagged for a closer look

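Among 28 groups of 4 libraries tested by Dixon's ratio, where chance gives about 5%, 5 held a library far from the other 3. ETS2 in PC3 replicate 4 was at 36.1 FPKM beside 21.9 to 23.0 FPKM in the other PC3 libraries. The other 4 were single libraries with 1 to 3 reads in groups otherwise at 0, namely ERG in PC3 replicate 3 (0.0107 FPKM), ETV1 in DU145 replicate 3 (0.00232 FPKM), ELF5 in BPH-1 replicate 4 (0.0228 FPKM) and SPDEF in DU145 replicate 2 (0.0533 FPKM). In a group with 3 values at 0, any read in the remaining library gives this flag, so the 5% does not apply to these 4.

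The PCa lines differed from each other, by limma's test of PC3 against DU145, in 6 of the members. The log2 fold changes were 5.52 for SPDEF, 1.18 for EHF, 1.06 for ETV4 and 0.87 for ETV1, all higher in PC3, and -1.59 for ETV5 and -1.27 for ETS2.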

How the results depend on the processing

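The members called numbered 5 to 8 in PC3 against BPH-1, 2 to 6 in DU145 against BPH-1 and 3 to 7 in PC3 against DU145. With a stricter read filter the members called fell to 2 in DU145 against BPH-1 and 3 in PC3 against DU145, since only 5 could be tested in each, all genes called in PC3 against DU145 numbered 5210 and the other ETS genes called 1. Of the gene lists, the stricter filter left 5, 3 and 3 epithelial targets and 2 and 3 invasion targets called, the regulators called in DU145 were 5 under upper-quartile scaling and without DU145 replicates 1 and 3, and the fusion partners called between PC3 and DU145 were 3 without replicates 1 and 2. The other ETS genes called between PC3 and DU145 were 4 with the GC trend divided out, 1 under median-of-ratios and upper-quartile scaling, 7 without DU145 replicates 1 and 3, 1 without replicates 1 and 2, and 1 to 7 on leaving out each library. The replicate numbers did not pair the libraries, with 2 of 12 same-number correlations over 0.1 (-0.66 to 0.52). Each library was also checked against each other line, and in 4 of 24 checks the closest library had the same number. With the replicate block the other ETS genes called between PC3 and DU145 were 1, all genes called were 10710, 10152 and 6654, and ETS2 in DU145 against BPH-1 gained a call (0.46, adjusted p = 0.0330).

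The genes followed through the alternatives were the members and, of the other named genes, those called in a comparison as reported. Among these, signs changed only for uncalled ETS1 and ELF3 and for ATXN1L (0.0042 under upper-quartile scaling). In PC3 against BPH-1, ELF3 was 0.022 under median-of-ratios and 0.24 under upper-quartile scaling and -0.26 to 0.10 on leaving out each library, and ETS1 was 0.037 under upper-quartile scaling and 0.15 with the GC trend divided out. ETS1 in DU145 against BPH-1 was -0.033 with log2(FPKM + 0.1), -0.22 with equal summed FPKM, -0.012 under median-of-ratios scaling, -0.042 with voom, -0.27 without DU145 replicates 1 and 2, and -0.36 to 0.42 on leaving out each library. ETS1 in PC3 against DU145 was -0.74 to 0.050 on leaving out each library. The cause was not tested. Of the other values of the members, 449 kept their direction and side of the threshold, 8 gained a call and 2 lost it. Low read numbers limit ELF5 in every line, ERG in DU145 and PC3, ETV1 and EHF in DU145, and SPDEF outside PC3.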
